A study of Rattus norvegicus with 18 samples.

Results

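The 10 genes described here mark the neurons of the rat brain that release dopamine, serotonin or noradrenaline. They are 4 enzymes of transmitter synthesis (Th, Ddc, Tph2, Dbh), 1 vesicular transporter (Slc18a2), 3 transporters of the cell membrane (Slc6a3, Slc6a4, Slc6a2) and 2 transcription factors (Fev, En1). They were taken by gene symbol from the 34873 genes of an RNA-seq count table, and each symbol matched 1 gene. All are protein-coding in the table, with Th, Slc18a2 and Slc6a3 on chromosome 1, Dbh on 3, Tph2 on 7, Fev on 9, Slc6a4 on 10, En1 on 13, Ddc on 14 and Slc6a2 on 19. The table holds 18 libraries of rat brain in 3 groups of 6. In the CLCF1 group, rats labelled with a knock-down of Clcf1, which codes for a secreted cytokine, inhaled carbon monoxide (CO). The CO group had the same exposure and is labelled wild type, and the NC group is labelled wild type with no treatment. The design text gives the exposure as 1000 ppm for 40 min and then 3000 ppm for 20 min. It describes lentiviral knock-down in bone marrow macrophages and their transfer into rats whose own macrophages had been depleted, without saying which groups were depleted or received cells. The CLCF1 and CO groups may therefore differ in more than Clcf1, and the part of the brain sampled and the time after exposure are not stated. Nothing says that the libraries came from separate animals, so the p-values below measure the spread between libraries.

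Monoamine neurons are few, and their cell bodies lie in small nuclei. Dopamine neurons sit mainly in the ventral midbrain, serotonin neurons in the raphe nuclei and noradrenaline neurons in the locus coeruleus, while their axons reach most of the brain. Tyrosine hydroxylase (Th) makes L-DOPA from tyrosine and is rate-limiting for dopamine and noradrenaline, tryptophan hydroxylase 2 (Tph2) starts serotonin synthesis in the brain, aromatic amino acid decarboxylase (Ddc) completes both dopamine and serotonin, and dopamine beta-hydroxylase (Dbh) turns dopamine into noradrenaline. The vesicular transporter Slc18a2 (VMAT2) loads all of these amines into vesicles. After release, Slc6a3 takes up dopamine, Slc6a4 serotonin and Slc6a2 noradrenaline. Fev (Pet1) is a transcription factor of serotonin neurons, and En1 is one of the midbrain and anterior hindbrain that dopamine neurons keep in adult life. Th and Slc18a2 are not confined to the ventral midbrain: Th is also made by dopamine interneurons of the olfactory bulb and by hypothalamic neurons, and Slc18a2 by every monoamine neuron type.

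The promoters of 4 members that the results turn on are shown because these genes act in overlapping sets of neurons and had different fold changes. Each run holds the 250 bases before the annotated start, read 5′ to 3′ on the gene's strand, from the RefSeq table of the rat build GRCr8. The windows are chr1:207508219-207508468 on the minus strand for Th, chr1:268399771-268400020 on the plus strand for Slc18a2, chr7:52675640-52675889 on the minus strand for Tph2 and chr1:31578963-31579212 on the minus strand for Slc6a3. Capitals mark the motif matches.
Th: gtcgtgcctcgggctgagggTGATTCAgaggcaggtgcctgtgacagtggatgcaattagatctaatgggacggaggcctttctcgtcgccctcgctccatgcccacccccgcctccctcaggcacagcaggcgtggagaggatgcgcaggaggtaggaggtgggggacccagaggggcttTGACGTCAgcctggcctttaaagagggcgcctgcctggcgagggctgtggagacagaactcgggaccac
Slc18a2: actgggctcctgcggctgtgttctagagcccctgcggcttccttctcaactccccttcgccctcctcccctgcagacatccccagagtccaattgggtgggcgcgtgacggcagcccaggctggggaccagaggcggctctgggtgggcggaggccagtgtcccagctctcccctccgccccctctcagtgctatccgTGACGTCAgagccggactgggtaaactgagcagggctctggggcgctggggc
Tph2: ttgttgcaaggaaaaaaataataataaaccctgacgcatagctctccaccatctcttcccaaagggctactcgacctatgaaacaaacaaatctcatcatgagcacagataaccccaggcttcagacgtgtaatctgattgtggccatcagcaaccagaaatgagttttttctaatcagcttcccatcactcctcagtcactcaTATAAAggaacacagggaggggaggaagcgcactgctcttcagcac
Slc6a3: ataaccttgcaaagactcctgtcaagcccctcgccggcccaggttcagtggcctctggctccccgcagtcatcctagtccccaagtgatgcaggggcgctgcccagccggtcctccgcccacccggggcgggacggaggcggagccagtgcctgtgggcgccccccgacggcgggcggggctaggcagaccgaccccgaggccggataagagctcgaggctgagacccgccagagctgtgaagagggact

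The motifs were searched on both strands. Th and Slc18a2 each held the full cyclic AMP response element TGACGTCA, which begins 69 bases before the start of Th and 52 bases before that of Slc18a2. This element occurred in 1.59% of 33465 promoter windows of the same length. Th also held an AP-1 site (TGANTCA, 6.34% of windows) 230 bases before its start. Tph2 held a TATA box (TATAAA, 12.9% of windows) 46 bases before its start. No match to these motifs, to the NBRE of the Nr4a receptors (AAAGGTCA, 1.24%) or to an ETS core (CCGGAA, 12.6%) lay in the Slc6a3 window. In the table, 8 of the 10 members had a promoter, and of the other matches En1 held an AP-1 site and an ETS core, and Ddc an AP-1 site and an NBRE that overlaps a TATA box. A match is a stretch of letters and was not tested as a site of binding.

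The libraries held 15.1 to 20.3 M counts. Levels are given as CPM, the count relative to the library's total in M counts after TMM scaling, a normalization on the bulk of genes, and tests are edgeR quasi-likelihood tests over 16581 genes with an adjusted p threshold of 0.05. Clcf1 averaged 0.0549 CPM in CLCF1, 6.23 CPM in CO and 0.161 CPM in NC, so the libraries labelled as a knock-down were low in it and so were those of NC. Libraries 3 to 6 stand apart from libraries 1 and 2 of their group. In 42660 cases a gene was at 0 in libraries 1 and 2 of a group, and in 0 of these did libraries 3 to 6 hold a count. Whether libraries 3 to 6 are independent of libraries 1 and 2 is not known. If they are not, n is below 6 in each group, and the SDs, SEs and p-values given for n = 6 may be too small. Fold bounds from 0 counts over a group may then be too high, and intervals from counts too narrow. The fits below that leave out 1 library share this limit. Results are therefore also given for libraries 1 and 2, where edgeR called 0 members in each comparison, and for libraries 3 to 6. Libraries 1 and 2 alone gave few calls of any kind, with 4 of the 16581 genes in CO against NC.

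The members' levels per transcript length (TPM, computed from the counts and the gene lengths in the table) had a different order in each group. In CLCF1, Th led with 24.0 ± 14.1 TPM, ahead of Slc18a2 at 6.08 ± 2.52 TPM and Tph2 at 2.24 ± 1.51 TPM (mean ± SD, n = 6). Below these stood Ddc at 1.29 ± 1.18 TPM and Slc6a3 at 0.899 ± 0.894 TPM, and the other 5 averaged 0.0357 TPM or less. In CO, Slc18a2 led with 12.01 ± 7.39 TPM, followed by Th at 3.90 ± 3.52, Ddc at 1.96 ± 1.69 and Tph2 at 1.65 ± 1.26 TPM, with the other 6 at 0.171 TPM or less. In NC, 5 members lay between 11.8 and 24.5 TPM. These were Tph2 at 24.5 ± 13.3, Th at 13.2 ± 14.2, Slc6a3 at 12.9 ± 7.50, Ddc at 12.6 ± 5.24 and Slc18a2 at 11.8 ± 5.25 TPM. Neighbours in that order differed by less than the larger SD of the pair, and the same held for Th, Ddc and Tph2 in CO and for Tph2, Ddc and Slc6a3 in CLCF1. Below them in NC came Slc6a4 at 7.45 ± 6.40 TPM, En1 at 4.51 ± 3.03, Fev at 0.747 ± 0.797, Dbh at 0.744 ± 0.279 and Slc6a2 at 0.0790 ± 0.0879 TPM.

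**Figure D1:**
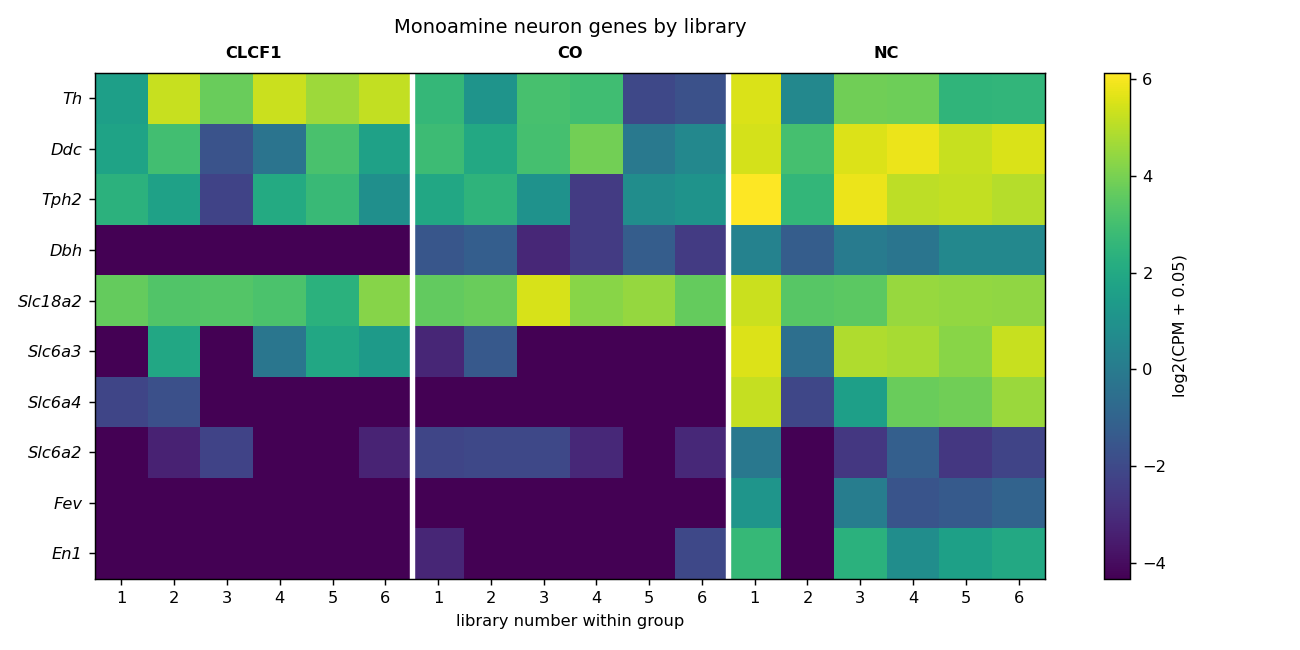
Level of the 10 genes (rows) in each of the 18 libraries (columns, 6 per group in the order CLCF1, CO, NC), coloured by log2(CPM + 0.05). The dark cells of Slc6a3, Slc6a4, Fev and En1 in CLCF1 and CO are libraries with few or no counts, and NC library 2 is the darkest NC column.

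The low-count filter kept 5 members (Th, Ddc, Tph2, Slc18a2 and Slc6a3). The other 5 (Dbh, Slc6a4, Slc6a2, Fev and En1) were too low in too many libraries, and their counts are given with fold changes from the count ratio. Slc6a3 passed the filter only with the help of the NC libraries, so counts of members called are an account of the list and not evidence for it.

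After CO exposure, the dopamine transporter gene and 2 enzyme genes of the monoamine pathway fell against untreated brain, and the serotonin transporter gene had no count left. Of the 5 members tested, 3 fell (Slc6a3, Tph2 and Ddc), 0 rose and 2 did not pass (Th and Slc18a2), where 12.7% of all genes tested were called, 6.40% lower and 6.32% higher. The median log2 fold change of the 5 was -2.72, against 0.01 over all genes. In these bulk libraries, fewer cells of a type and less RNA per cell cannot be told apart, and neither can a difference in the tissue taken.

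Slc6a3 ranged up to 0.322 CPM in CO libraries with a median of 0, against a lowest value of 0.648, a median of 28.5 and a highest of 47.8 CPM in NC libraries. Every CO library lay below every NC library, and CO libraries 3 to 6 had no count at all. The whole CO group held 6 counts of Slc6a3 and the NC group 2762, which is a 408-fold lower level in CO (95% exact binomial interval 187 to 1112, counting error only). The fitted log2 fold change was -8.59 ± 1.25 (SE, edgeR adjusted p = 0.000865). It was -10.43 without CO library 2, which held 5 of the 6 counts, where the count ratio was 2049-fold (368 to 80972). The call passed in all 12 fits that left out 1 library and was lost with limma-voom (adjusted p = 0.0978).

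Tph2 spanned 0.127 to 5.54 CPM in CO with a median of 1.99, and 5.93 to 69.6 CPM in NC with a median of 34.6. The groups did not overlap, though NC library 2 came within 1 CPM of the highest CO library. Tph2 and Slc6a3 were thus 2 of 5 members lower with no overlap of CPM, where 3.20% of all genes tested were lower and 3.15% higher in this way. Tph2 fell by 3.93 ± 0.69 on the log2 scale (edgeR adjusted p = 0.00187). Ddc, which serves both dopamine and serotonin synthesis, had 0.882 to 14.8 CPM in CO (median 5.49) and 8.20 to 55.7 CPM in NC (median 44.9). Here 5 of the 6 CO libraries lay below the lowest NC library. Ddc fell by 2.72 ± 0.69 (edgeR adjusted p = 0.0163).

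Th, the rate-limiting enzyme of dopamine synthesis, had 0.189 to 8.38 CPM in CO (median 4.14) and 1.44 to 45.9 CPM in NC (median 9.86). The groups overlapped, with 2 CO libraries below the lowest NC library, and NC library 1 alone stood far above the rest. The log2 fold change of -1.82 ± 0.82 did not pass (edgeR adjusted p = 0.144), and without NC library 1 it was -1.01. Slc18a2, which all 3 amines share, ran from 12.2 to 45.3 CPM in CO (median 16.3) and from 10.7 to 38.8 CPM in NC (median 21.2). The ranges lay nearly on top of each other. Its log2 fold change of -0.01 ± 0.37 did not pass (edgeR adjusted p = 0.991) and changed sign between settings, from 0.39 in libraries 3 to 6 alone to -0.99 in libraries 1 and 2 alone.

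Among the members below the filter, the serotonin transporter gene Slc6a4 had 0 counts in CO and 1517 in NC, where its range was 0.185 to 36.5 CPM with a median of 13.9. With 3 counts over the CO group as the limit that 0 allows, the level was at least 448-fold lower in CO, and at least 163-fold lower in libraries 1 and 2 alone. The bound in libraries 1 and 2 rests on NC library 1, which held 551 of their 555 NC counts, while NC library 2 held 4. Over the groups without NC library 1, the bound was 332-fold. The serotonin neuron factor Fev had 0 counts in CO and 69 in NC, at least 20.4-fold lower, and at least 12.7-fold lower without NC library 1, which held 32 of the counts. NC library 2 had none either, and in libraries 1 and 2 alone the bound was 9.37-fold. En1 had 4 counts in CO and 338 in NC, a 74.9-fold lower level (29.0 to 276), which was 250.1-fold (44.6 to 9906) without CO library 6, again with none in NC library 2. Dbh stayed measurable in both groups, with 22 counts in CO and 107 in NC, and was 4.31-fold lower (2.70 to 7.16). Its CO range of 0.0630 to 0.387 CPM just met the NC range of 0.370 to 1.41 CPM. Slc6a2 had 11 counts in CO and 27 in NC, 2.17-fold lower (1.04 to 4.86), and 1.31-fold lower without NC library 1 with an interval that includes no difference (0.553 to 3.19), with a range of 0 to 0.193 CPM in CO inside that of 0 to 0.861 CPM in NC. With no filter, edgeR tested all 10 members and called 7 lower and 0 higher, where 19.0% of all genes were called and 10.1% called lower.

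**Figure D2:**
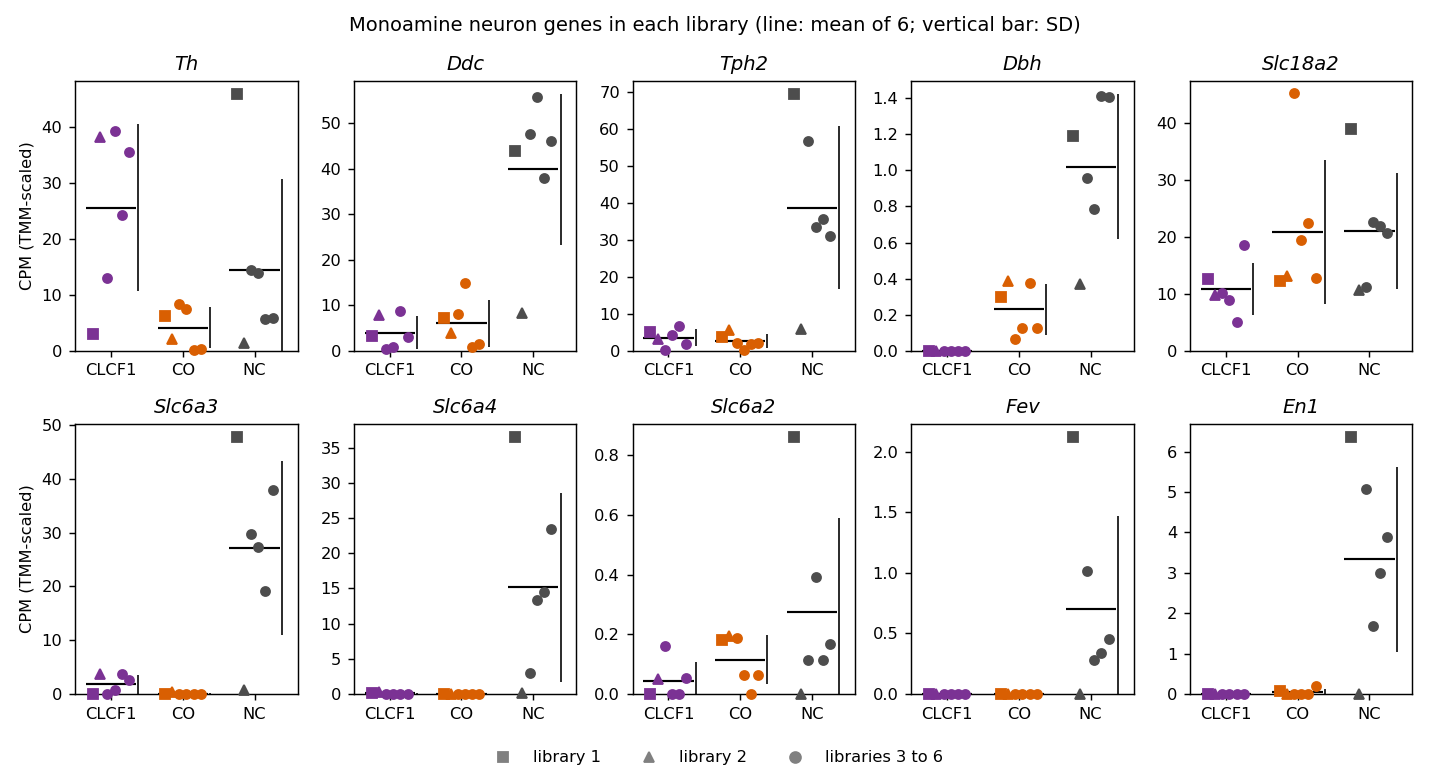
CPM of each of the 10 genes by library, for CLCF1, CO and NC (left to right in each panel), with the mean as a horizontal line and the SD as a vertical bar (n = 6). Each panel has its own linear axis from 0, so bars that reach below 0 are cut there. Squares are library 1, triangles library 2 and circles libraries 3 to 6, and the NC triangle is the lowest NC point in every panel.

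Against CO, the CLCF1 group had more RNA of Th and of the dopamine transporter gene, while the serotonin enzyme gene was low in both. Of the 5 members tested, 2 rose in CLCF1 against CO (Th and Slc6a3), 0 fell and 3 did not pass (Ddc, Tph2 and Slc18a2), where 17.0% of all genes tested were called, 8.63% higher and 8.34% lower. The products of both act in dopamine neurons. Those of Ddc and Slc18a2 act there too, and their log2 fold changes of -0.59 and -0.95 did not pass with edgeR. The median log2 fold change of the 5 was 0.47, against 0.00 over all genes. None of the 5 was free of overlap, where 3.46% of all genes tested were higher and 3.65% lower with no overlap. The comparisons with CO in them use the same CO libraries, so a low or high value there moves both.

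Th had 2.92 to 39.3 CPM in CLCF1 (median 29.9) and 0.189 to 8.38 CPM in CO (median 4.14). In CLCF1, 5 of 6 libraries lay above the highest CO library, and library 1 fell inside the CO range. The rise was 2.64 ± 0.83 on the log2 scale (edgeR adjusted p = 0.0351). It missed the threshold in 7 of the 12 fits that left out 1 library, those without CO library 2, 5 or 6 or without CLCF1 library 2, 4, 5 or 6, with adjusted p-values up to 0.065, and with limma-voom (adjusted p = 0.0535).

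Slc6a3 had 0 to 3.80 CPM in CLCF1 (median 1.67) and 0 to 0.322 CPM in CO (median 0). In CLCF1, 4 of 6 libraries stood above all CO libraries, and libraries 1 and 3 had no count. The rise was 4.72 ± 1.31 on the log2 scale (edgeR adjusted p = 0.0189), and 6.55 without CO library 2. Counted over the groups, 210 counts in CLCF1 stood against 6 in CO, and in libraries 3 to 6 alone 132 stood against 0, at least 37.6-fold higher in CLCF1. The call was lost with limma-voom (adjusted p = 0.551).

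The serotonin enzyme gene Tph2 stayed low in both exposed groups, at 0.161 to 6.72 CPM in CLCF1 (median 3.62) and 0.127 to 5.54 CPM in CO. The ranges overlapped almost fully, and the log2 fold change of 0.47 ± 0.65 did not pass (edgeR adjusted p = 0.667). Ddc behaved alike, with 0.269 to 8.77 CPM in CLCF1 (median 3.17), 0.882 to 14.8 CPM in CO and a log2 fold change of -0.59 ± 0.68 that did not pass (edgeR adjusted p = 0.592). Slc18a2 ran from 4.98 to 18.5 CPM in CLCF1 (median 9.92) and from 12.2 to 45.3 CPM in CO. In CLCF1, 4 libraries lay below the lowest CO library, and CO library 3 stood far above the rest. The log2 fold change of -0.95 ± 0.37 did not pass with edgeR (adjusted p = 0.0834), passed with DESeq2 (adjusted p = 0.0436) and was -0.56 without CO library 3.

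Among the members below the filter, Dbh had 0 counts in all 6 CLCF1 libraries and 22 counts spread over all 6 CO libraries. That is at least 8.56-fold lower in CLCF1, and at least 4.25-fold lower in libraries 1 and 2 alone. Slc6a4 had 8 counts in CLCF1, all in libraries 1 and 2, and 0 in CO. Slc6a2 had 5 counts in CLCF1 and 11 in CO, En1 had 0 and 4, and Fev had none in either group, so no fold is given for Fev. With no filter, edgeR called Th and Slc6a3 higher and Dbh lower, 3 of 10 members, where 24.9% of all genes were called in either direction and 12.2% called lower.

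Against untreated brain, the CLCF1 group was low in Tph2, Ddc and the dopamine transporter gene, and Th did not pass. Of the 5 members tested, 3 fell in CLCF1 against NC (Tph2, Slc6a3 and Ddc), 0 rose and 2 did not pass (Th and Slc18a2), where 9.26% of all genes tested were called, 4.84% lower and 4.43% higher. The median log2 fold change of the 5 was -3.32, against 0.01 over all genes. This comparison shares its NC libraries with that of CO against NC.

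Tph2 fell by 3.46 ± 0.67 on the log2 scale in CLCF1 against NC (edgeR adjusted p = 0.00383), with the ranges given above, and 5 of 6 CLCF1 libraries lay below the lowest NC library. Ddc fell by 3.32 ± 0.71 (edgeR adjusted p = 0.00785), also with 5 of 6 libraries below. Slc6a3 fell by 3.88 ± 0.87 (edgeR adjusted p = 0.00967), but only 2 of 6 CLCF1 libraries lay below the lowest NC library, because NC library 2 had 0.648 CPM. None of the 5 members was free of overlap here, where 2.90% of all genes tested were lower and 2.73% higher with no overlap. The 3 calls held in all 12 fits that left out 1 library, and that of Slc6a3 was lost with limma-voom (adjusted p = 0.136).

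Th had a median of 29.9 CPM in CLCF1 and 9.86 CPM in NC, with 5 of 6 CLCF1 libraries above the NC median. NC library 1, at 45.9 CPM, was the highest of all 18 libraries. The log2 fold change of 0.82 ± 0.78 did not pass (edgeR adjusted p = 0.552), was 1.64 without NC library 1 and -0.26 in libraries 1 and 2 alone. Slc18a2 averaged 10.8 ± 4.50 CPM in CLCF1 and 21.0 ± 10.2 CPM in NC, and its log2 fold change of -0.96 ± 0.37 did not pass (edgeR adjusted p = 0.109).

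The members below the filter had few counts or none in CLCF1. Dbh, Fev and En1 had no count in any CLCF1 library, and were at least 36.9-fold, 23.8-fold and 116-fold lower there than in NC. In libraries 1 and 2 alone these bounds were 8.82-fold, 10.9-fold and 32.6-fold. Slc6a4 had 8 counts in CLCF1 and 1517 in NC, a 196-fold lower level (99.2 to 455), or 426-fold (146 to 2070) without CLCF1 library 2. Slc6a2 had 5 counts in CLCF1 and 27 in NC, 5.58-fold lower (2.12 to 18.6), and the fold was 3.37 (1.15 to 11.9) without NC library 1 and 11.6 (2.92 to 101) without CLCF1 library 3. The bound for Fev was 14.8-fold without NC library 1. With no filter, edgeR called 7 of 10 members lower and 0 higher, where 19.0% of all genes were called and 10.1% called lower.

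**Figure D3:**
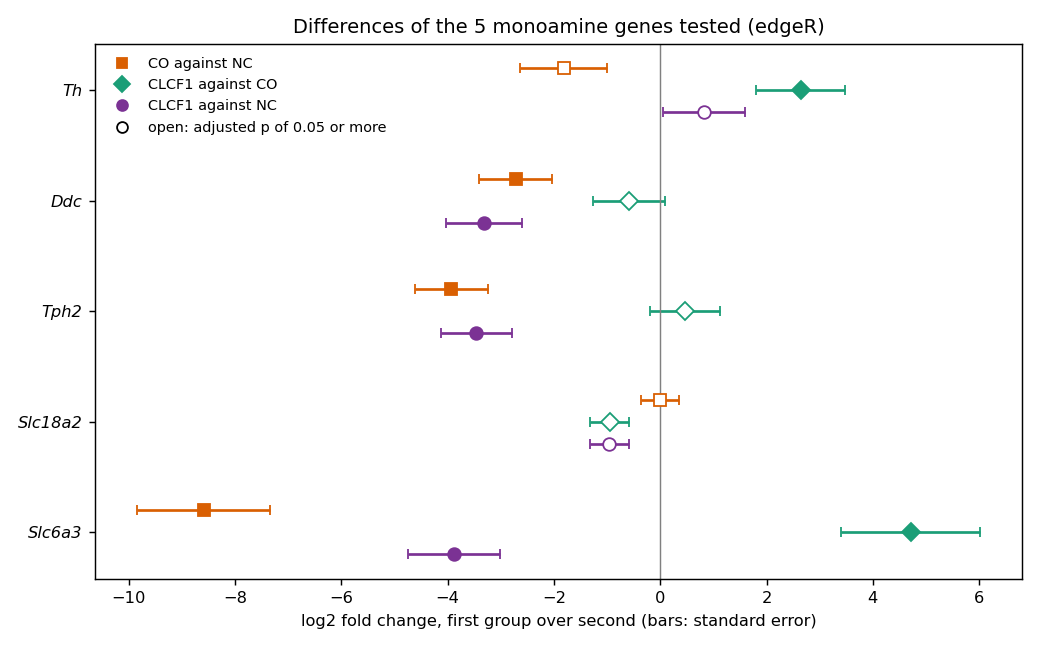
Log2 fold change with its standard error for the 5 genes tested, in CO against NC (squares), CLCF1 against CO (diamonds) and CLCF1 against NC (circles). Open symbols did not pass an adjusted p of 0.05. Slc6a3, Tph2 and Ddc are filled and left of 0 in CO against NC and in CLCF1 against NC, and only Th and Slc6a3 are filled in CLCF1 against CO.

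These differences were not all called in each set of libraries, where fewer genes of any kind were called. In libraries 3 to 6 alone, edgeR called 2 of 5 members lower in CO against NC (Slc6a3 and Tph2), 1 higher in CLCF1 against CO (Slc6a3) and 3 lower in CLCF1 against NC. Over all 16581 genes, calls in libraries 3 to 6 were 857 in CO against NC, 1364 in CLCF1 against CO and 630 in CLCF1 against NC. In all libraries they were 2110, 2814 and 1536 in the same order. In libraries 1 and 2 alone edgeR called 0 members in each of the 3 comparisons, and only 4 of the 16581 genes in CO against NC. With so few calls over all genes, 0 of 5 says little about the members. Unadjusted edgeR p-values there were 0.0301 for Ddc, 0.0397 for Tph2, 0.0822 for Slc6a3, 0.105 for Slc18a2 and 0.268 for Th in CO against NC. In CLCF1 against NC they were 0.0293, 0.0329, 0.198, 0.0619 and 0.895 in the same order of genes. In CLCF1 against CO they were 0.31 or more. None passed after adjustment, and how many of all genes lay under 0.05 unadjusted was not counted. The log2 fold changes of Ddc and Tph2 in libraries 1 and 2 were -2.26 and -3.03 in CO against NC, and -2.27 and -3.23 in CLCF1 against NC.

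The members also differed widely inside a group. NC library 2 was the lowest NC library for all 10 members, while it was the lowest for 13.6% of all genes tested. NC library 1 was the highest for 8 of the 10, against 14.9% of all genes. Slc6a4 had 36.5 CPM in NC library 1 and 0.185 CPM in NC library 2, a 197-fold ratio. For Slc6a3 the ratio between these libraries was 73.7, for Th 32.0, for Tph2 11.7, for Ddc 5.34, for Slc18a2 3.63 and for Dbh 3.22, and Slc6a2, Fev and En1 had no count in NC library 2. Over all genes, 0.828% of 15102 were at least 4-fold higher in NC library 1 than in NC library 2. Without NC library 2, the 3 falls of CO against NC were -8.86 for Slc6a3, -4.16 for Tph2 and -2.94 for Ddc, and without NC library 1 they were -8.36, -3.70 and -2.70. In CLCF1, library 2 had 38.2 CPM of Th and library 1 had 2.92 CPM, and Slc6a3 had 3.80 CPM in library 2 and 0 in library 1.

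Genes that support amine synthesis and breakdown moved in both directions, and their counts stand beside shares over all genes of 12.7% called in CO against NC, 17.0% in CLCF1 against CO and 9.26% in CLCF1 against NC. Of 9 cofactor and related enzyme genes tested, 1 fell and 0 rose in CO against NC, 2 rose and 0 fell in CLCF1 against CO, and 1 fell and 0 rose in CLCF1 against NC. The histamine enzyme gene Hdc had 0.261 ± 0.155 CPM in CO and 1.23 ± 0.344 CPM in NC and fell by 2.20 ± 0.36 (edgeR adjusted p = 0.00125). It stood at 1.01 ± 0.231 CPM in CLCF1 and rose against CO by 1.91 ± 0.36 (edgeR adjusted p = 0.00232). Hdc is also counted among the hypothalamic genes below. The other gene that rose was Tph1 (5.79 ± 1.47, edgeR adjusted p = 0.0122), at 6.72 ± 15.5 CPM in CLCF1 and 0.114 ± 0.0946 CPM in CO. That call was lost in 1 of the 12 fits without 1 library. Qdpr was the gene that fell in CLCF1 against NC (-0.81 ± 0.21, edgeR adjusted p = 0.0202). Gch1, which makes the cofactor of Th and Tph2, followed the split of the NC libraries with 5.50 CPM in library 1 and 0.602 CPM in library 2. Of 9 breakdown genes, 2 fell and 1 rose in CO against NC, 2 rose and 1 fell in CLCF1 against CO, and 1 fell in CLCF1 against NC. Aldh3a1, an aldehyde dehydrogenase, fell by 2.40 ± 0.46 in CO against NC (edgeR adjusted p = 0.00331) and rose by 2.28 ± 0.46 in CLCF1 against CO (edgeR adjusted p = 0.00307). The monoamine oxidase genes Maoa and Maob passed in none of the 3 comparisons. Of 8 vesicle and uptake genes, the low-affinity amine transporter gene Slc29a4 fell in CO against NC (-1.17 ± 0.25, edgeR adjusted p = 0.00645), and 7 did not pass. It rose in CLCF1 against CO (0.76 ± 0.25, edgeR adjusted p = 0.0438), a call lost in 8 of the 12 fits without 1 library. In CLCF1 against NC, 1 of the 8 fell, Slc10a4 (-1.96 ± 0.57, edgeR adjusted p = 0.0367), a call lost in 6 of the 12 fits without 1 library, and 7 did not pass.

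Among 17 other transcription factors of monoamine neurons, 15 were found and 6 could be tested. Of the 6, 2 fell in CO against NC, 2 rose and 1 fell in CLCF1 against CO, and 0 passed in CLCF1 against NC. Over all genes tested, 12.7%, 17.0% and 9.26% were called in the same order of comparisons. Tfap2b, the gene of transcription factor AP-2 beta, had 0.965 ± 0.862 CPM in CO and 7.40 ± 3.47 CPM in NC, a fall of 2.93 ± 0.52 (edgeR adjusted p = 0.00188). In CLCF1 it had 9.31 ± 2.97 CPM and rose against CO by 3.26 ± 0.52 (edgeR adjusted p = 0.000748). Nr4a2, a nuclear receptor of dopamine neurons that cortical activity also induces, fell in CLCF1 against CO by 2.70 ± 0.56 (edgeR adjusted p = 0.00371), opposite in direction to Th and Slc6a3. Lmx1a, a dopamine progenitor factor that is also made in choroid plexus, rose there by 3.78 ± 0.99 (edgeR adjusted p = 0.0144). The serotonin factor Gata3 had no count in any CO library and reached 2.52 CPM in NC library 1.

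Of the receptor genes, only a minority of each family passed in any comparison. The shares called over all genes were 12.7% in CO against NC, 17.0% in CLCF1 against CO and 9.26% in CLCF1 against NC. Of 3 dopamine receptor genes tested, 0 passed in CO against NC or CLCF1 against NC, and Drd2 fell in CLCF1 against CO by 1.63 ± 0.55 (edgeR adjusted p = 0.0457), a call lost in 9 of the 12 fits without 1 library. Of 11 serotonin receptor genes, Htr1a, an autoreceptor of serotonin neurons that other neurons also carry, fell in CO against NC, with 2.19 ± 0.696 CPM in CO and 5.32 ± 0.828 CPM in NC (-1.28 ± 0.23, edgeR adjusted p = 0.00225), and 10 did not pass. In CLCF1, 2 of the 11 rose and 1 fell against CO, and 1 rose and 2 fell against NC. Htr1a was among those that rose against CO (0.74 ± 0.23, edgeR adjusted p = 0.0336), a call lost in 5 of the 12 fits without 1 library. Of 9 adrenergic receptor genes, Adrb3 fell in CO against NC (-2.05 ± 0.48, edgeR adjusted p = 0.00992) and 8 did not pass, while 1 rose and 2 fell in CLCF1 against CO and 0 passed in CLCF1 against NC. The nicotinic receptor subunit gene Chrnb3, which midbrain dopamine neurons express, fell in CO against NC by 3.65 ± 0.81 (edgeR adjusted p = 0.00771) and rose in CLCF1 against CO by 3.03 ± 0.81 (edgeR adjusted p = 0.0158). It was taken from a list of growth factor receptor and peptide genes of monoamine neurons. Of the 12 tested there, 1 fell and 11 did not pass in CO against NC, with a median log2 fold change of -0.08. The partner of Chrnb3, Chrna6, named after its values were seen, had no count in CO and up to 3.84 CPM in NC library 1.

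Inside NC, summed marker genes of midbrain and of thalamus were highest in library 1 and lowest in library 2, as were 8 of the 10 members. In CO against NC, 1 of 3 midbrain genes tested, 1 of 9 thalamic genes and 1 of 3 hindbrain and brainstem genes fell and 0 rose, while 1 of 11 striatal genes, 3 of 15 cortical and hippocampal genes and 1 of 6 cerebellar genes rose and 0 fell, and 3 of 10 hypothalamic genes rose and 2 fell, beside 6.40% of all genes lower and 6.32% higher. The cerebellar gene was Eomes, which is also on the olfactory bulb list below. Its call was lost in 6 of the 12 fits without 1 library. The part of such differences in the results was not tested. The summed CPM of 11 midbrain genes was 3.66 to 14.6 in CLCF1, 4.32 to 8.94 in CO and 5.56 to 30.0 in NC, with none of the 11 at 0 throughout NC and with 6 at 0 in every CLCF1 library and 3 in every CO library. Within NC it was 30.0 in library 1 and 5.56 in library 2, the same order as the members. The midbrain list shares genes, Lmx1b and Gata3 among them, with the list of monoamine neuron transcription factors. Its order is therefore not independent of genes of these neurons. The 10 thalamic genes summed to 107 to 231 CPM in CLCF1, 88.4 to 150 in CO and 99.9 to 420 in NC, with 420 in NC library 1 and 99.9 in NC library 2. The 12 striatal genes ran the other way inside NC, at 428 CPM in library 1 and 2209 in library 2, and spanned 565 to 1875 CPM in CLCF1 and 1852 to 2983 in CO. The 15 cortical and hippocampal genes summed to 1465 to 1847 CPM in CLCF1, 1616 to 2196 in CO and 1217 to 1552 in NC, and the 11 cerebellar genes to 200.2 to 275 CPM in CLCF1, 193 to 271 in CO and 213 to 290 in NC, with medians of 245, 249 and 244 CPM in that order. Of 17 hindbrain and brainstem genes, mostly of the Hox clusters, 14 had no count in CLCF1, 14 in CO and 12 in NC. Pan-neuronal genes summed to 6705 to 8043 CPM in CLCF1, 8117 to 8713 in CO and 6405 to 7358 in NC. This sum was higher in every CO library than in any library of the other groups.

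Th is also made in the olfactory bulb and the hypothalamus. The 15 hypothalamic genes summed to 136 to 374 CPM in CLCF1, 215 to 623 in CO and 172 to 356 in NC. A list of 12 bulb genes, written after values had been seen, summed to 109 to 761 CPM in CLCF1, 62.0 to 390 in CO and 53.2 to 192 in NC. The medians of this sum were 484, 94.7 and 161 CPM, and those of Th were 29.9, 4.14 and 9.86 CPM, the same order of groups. In CLCF1 libraries 1 to 6 the bulb sum was 109, 761, 602, 401, 543 and 426 CPM, and Th was 2.92, 38.2, 13.1, 39.3, 24.3 and 35.5 CPM. Library 1 was the lowest for both. Among libraries 3 to 6 the order of Th was the reverse of that of the bulb sum, and library 4, with the most Th, had the second-lowest sum. Tbx21, a factor of the bulb's projection neurons, had 0.894 to 18.4 CPM in CLCF1, up to 0.419 in CO and up to 0.463 in NC. Choroid plexus genes were also high in CLCF1, where their sum was 66.3 to 6023 CPM against 0.945 to 42.5 in CO and 6.92 to 219 in NC. Of 8 such genes, 7 rose and 0 fell in CLCF1 against CO, where 8.63% of all genes tested were called higher and 8.34% lower. Library 1, the lowest in Th, had the highest sum (6023 CPM), library 2 had the lowest (66.3 CPM), and library 4, the highest in Th, had the second-highest (3932 CPM). The part of either tissue in the level of Th was not tested.

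**Figure D4:**
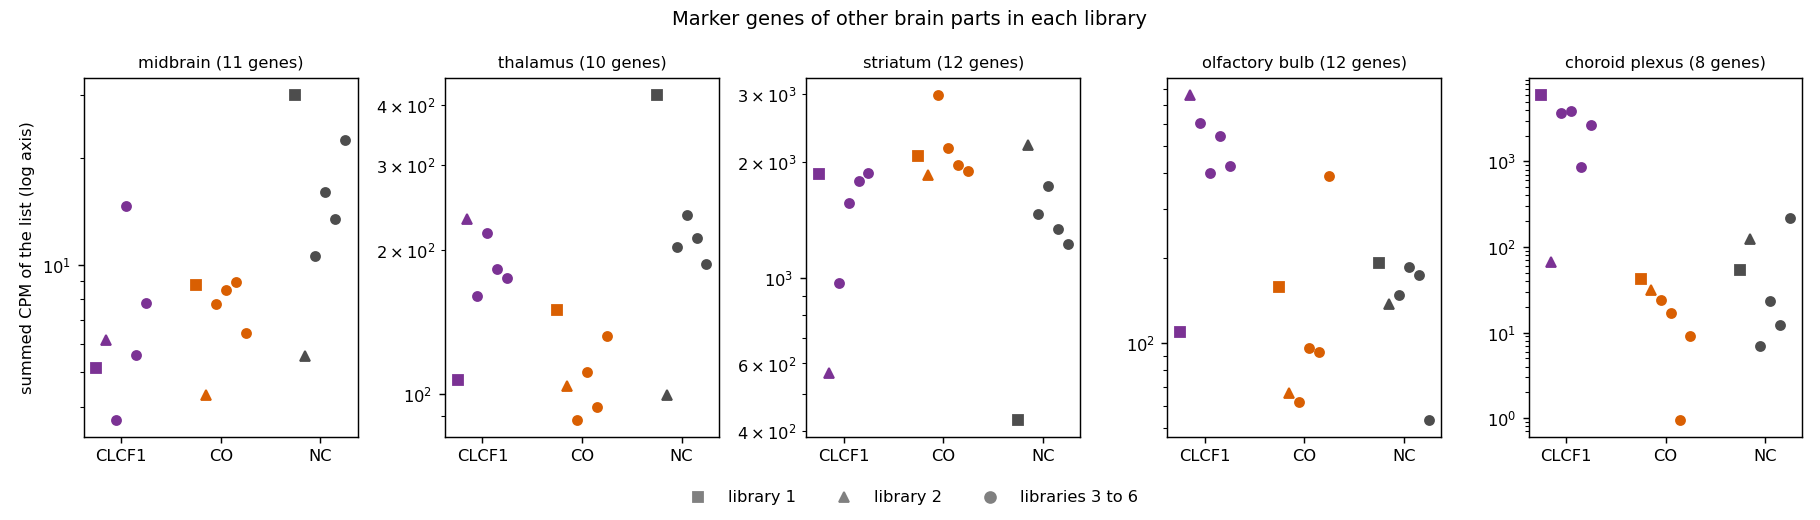
Summed CPM of marker genes of 5 brain parts in each library, on log axes, for CLCF1, CO and NC (left to right). Squares are library 1, triangles library 2 and circles libraries 3 to 6. NC library 1 is the highest NC library for midbrain and thalamus and the lowest for striatum, and CLCF1 library 1 is the lowest CLCF1 library for olfactory bulb and the highest for choroid plexus.

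Of 7 genes of cholinergic neurons, 0 passed in CO against NC, 2 fell in CLCF1 against CO and 5 fell in CLCF1 against NC, where 12.7%, 17.0% and 9.26% of all genes were called. The choline transporter gene Slc5a7 had 3.70 ± 2.11 CPM in CLCF1 and 13.0 ± 3.07 CPM in NC (-1.81 ± 0.36, edgeR adjusted p = 0.00503). Of 12 growth factor receptor and peptide genes of monoamine neurons, 1 fell in CO against NC, which was Chrnb3. In CLCF1 against CO, 1 rose (again Chrnb3) and 2 fell, and in CLCF1 against NC 1 rose and 4 fell. Neurotensin (Nts) was among the 4, at 4.32 ± 2.71 CPM in CLCF1 and 20.3 ± 5.45 CPM in NC (-2.23 ± 0.40, edgeR adjusted p = 0.00259). The cholecystokinin gene Cck, a more abundant peptide gene, was the 1 that rose, at 773 ± 163 CPM in CLCF1 and 501 ± 78.4 CPM in NC (0.63 ± 0.16, edgeR adjusted p = 0.0186), a call lost in 1 of the 12 fits without 1 library. Of 8 marker genes each of astrocytes, oligodendrocytes and microglia, 1 astrocyte gene fell and 1 microglial gene rose and 1 fell in CO against NC. In CLCF1, 1 oligodendrocyte gene fell against CO, and 2 astrocyte genes fell and 1 microglial gene rose against NC.

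The genes whose centred log2 CPM lay nearest to each tested member over the 18 libraries were listed as a description. For Th they were Chdh, Tshz2 and Adgrg2, with root mean square differences of 1.23 to 1.26 on the log2 scale, where Th itself had an SD of 2.10. Tshz2 averaged 25.4 CPM in CLCF1, 9.81 in CO and 19.1 in NC, the same order of groups as Th. For Ddc they were Lhx9, Arid4b and Cabp7 (1.24 to 1.29), for Tph2 LOC100910944, Tsc22d4 and Dao (1.13 to 1.31), and for Slc18a2 Rph3al, Ninj2 and Gpr165 (0.41 to 0.51). For Slc6a3 they were Ebf3, Dao and its fellow member Tph2 (1.68 to 1.87, where Slc6a3 had an SD of 3.31). Ebf3, a transcription factor gene, averaged 1.25 CPM in CLCF1, 0.247 in CO and 5.31 in NC.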

How the data were processed

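RNA-seq of 18 rat brain libraries was compared between the CLCF1, CO and NC groups, as the titles name them. RNA from a column kit (1.3 ug of total RNA) entered a SMARTER mRNA-Seq library, per the labels' protocols. Aligner and counter are not stated there, and nor is strandedness, so reads of overlapping and antisense genes may be mixed. Values are raw counts per gene in 1 table that the authors deposited without normalization. The submitters' processing notes name the mouse builds GRCm38 and mm10, although the table's gene IDs and coordinates are of rat, and no coordinates from it are printed. Promoters came from RefSeq (GRCr8).

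Counts were fitted in edgeR 4.0.16 (R 4.3.3) with TMM, filterByExpr defaults and a robust quasi-likelihood fit of all 18 libraries. Adjustment was by Benjamini-Hochberg over 16581 genes at a threshold of 0.05. The SE is the size of the log2 fold change over the square root of F. CPM used TMM library sizes, and nearest genes used log2 CPM with a prior count of 2. Bounds put 3 counts over a group in place of 0, and 95% binomial intervals are exact and cover counting error only, as the labels name no molecular identifiers. The depth was 15.1 to 20.3 M counts. All 10 members are named, and of each gene list up to 4 genes with the smallest p among those passing were eligible for naming, with others given as levels, chosen after their values were seen. Members and lists were chosen with earlier results of these data known. The fit was tested on simulated counts. Alternatives were other scalings, filters and tools (DESeq2 1.42.0, limma-voom in limma 3.58.1), fits of 2 groups, subsets of libraries, the library number as a block, leaving out each library, and a call rule that also required a log2 fold change of at least 1 in size.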

Additional observations from a re-analysis of the deposited data

Results flagged for a closer look

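Dixon's test at its 95% critical value was applied to 15 groups of 6 libraries (5 genes in 3 groups). In 3 of these, a library stood far from the others. Chance gives about 1 in 20 for independent, normally distributed values. The CPM values were not shown to meet this, so 3 of 15 was not read as an excess. Th stood at 45.9 CPM in NC library 1, and the next NC library had 14.4 CPM. Slc18a2 stood at 45.3 CPM in CO library 3, and the next CO library had 22.4 CPM. Slc6a3 stood at 0.322 CPM in CO library 2, and the next CO library had 0.0598 CPM.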

How the results depend on the processing

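The number of members called was 3 in CO against NC, 2 in CLCF1 against CO and 3 in CLCF1 against NC. With no low-count filter it was 7, 3 and 7 of 10 members, with all of the added calls from members that the filter had removed. In libraries 1 and 2 alone it was 0, 0 and 0, and in libraries 3 to 6 alone it was 1 in CLCF1 against CO. There it was also 0 with limma-voom, 1 with the library number as a replicate block, where Slc6a3 missed the threshold (adjusted p = 0.0566), and 1 to 2 when each library was left out.

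Over all genes, the counts of calls were 2110, 2814 and 1536 in the same order of comparisons. They were 4291, 5645 and 4292 with no filter, 4, 8 and 2 in libraries 1 and 2, 857, 1364 and 630 in libraries 3 to 6, and 1088, 1468 and 913 when a log2 fold change of at least 1 in size was also required. DESeq2 gave 2334 in CLCF1 against NC. Library size alone as scaling left 40.2% of the calls in CO against NC higher, against 49.7% with TMM.

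Of the log2 fold changes of single members under the alternatives, 297 kept direction and side of the threshold, 22 lost the call, 2 gained it and 9 turned sign. Those that turned were Slc18a2 in CO against NC (0.39 in libraries 3 to 6, and -0.39 to 0.26 when each library was left out), Tph2 in CLCF1 against CO (-0.19 in libraries 1 and 2) and Th in CLCF1 against NC (-0.26 in libraries 1 and 2). None of these had passed, and the cause was not tested. Slc6a3 missed the threshold with limma-voom in CO against NC (adjusted p = 0.0978) and in CLCF1 against NC (0.136). The labels give the library numbers no meaning, and same-numbered libraries deviated together with correlations of -0.03 to 0.15 across genes, so the numbers were not taken as pairs.

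At 15.1 to 20.3 M counts, 3 counts over a group correspond to 0.0269 CPM in CLCF1, 0.0314 in CO and 0.0278 in NC, and lower levels of Dbh, Fev, Slc6a4 and En1 were not detectable. These limits take the libraries of a group as independent, which is not known.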
